A study of Arabidopsis thaliana with 12 samples.

Results

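The carpel and ovule development genes described here are 10 Arabidopsis thaliana transcription factor genes, namely SHP1, SHP2, STK, CRC, INO, SPT, HEC1, HEC2, NGA3 and ETT. They were taken by gene identifier from a table of 25566 genes, with no filter on low expression, and all 10 were in it. The peak rows of the same genes, 6 of 6437, were taken from a table of m6A peaks. Levels were compared between a mettl16 mutant and Col-0, the reference accession, in aerial tissue of seedlings 3 weeks old, kept under a day of 16 h with a night of 8 h. The mutant is in the Col-0 background; its allele and locus are not stated in the sources used here. There were 3 RNA-seq libraries of each genotype, and 3 m6A immunoprecipitates of each, in which fragmented polyadenylated RNA was enriched with an antibody against N6-methyladenosine. The study concerns m6A and the change from leaf to flower production.

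Carpels are the innermost floral organs. They fuse into the gynoecium, which closes the floral meristem, carries stigma and style at its tip and bears the ovules along its inner margins. AGAMOUS (AG) gives carpels their identity, and MADS-box, YABBY, bHLH, B3 and auxin response factors then pattern the margins, the style and the ovule coats. Several of these factors also act in leaves, where the organ edge or the lower leaf side uses the same proteins.

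Of these genes 8 had every mettl16 value above every Col-0 value, and none had the reverse, in a table where the first pattern held for 37.9% and the reverse for 21.4% of all genes. The genes were chosen with earlier results of these data known, so a share above that of all genes is no independent support. The transcripts that were near or at 0 in Col-0 (SHP1, SHP2, STK, CRC, HEC1 and HEC2) were between 0.317 and 2.33 FPKM on average in mettl16. FPKM is a level per transcript length and library size, so it can be set side by side between genes. SPT and ETT, already present in Col-0, were 2.98-fold and 1.37-fold higher in mettl16. NGA3 overlapped between the genotypes, and INO, a late marker of the ovule's outer coat, was at or near 0 in all 6 libraries.

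**Figure D1:**
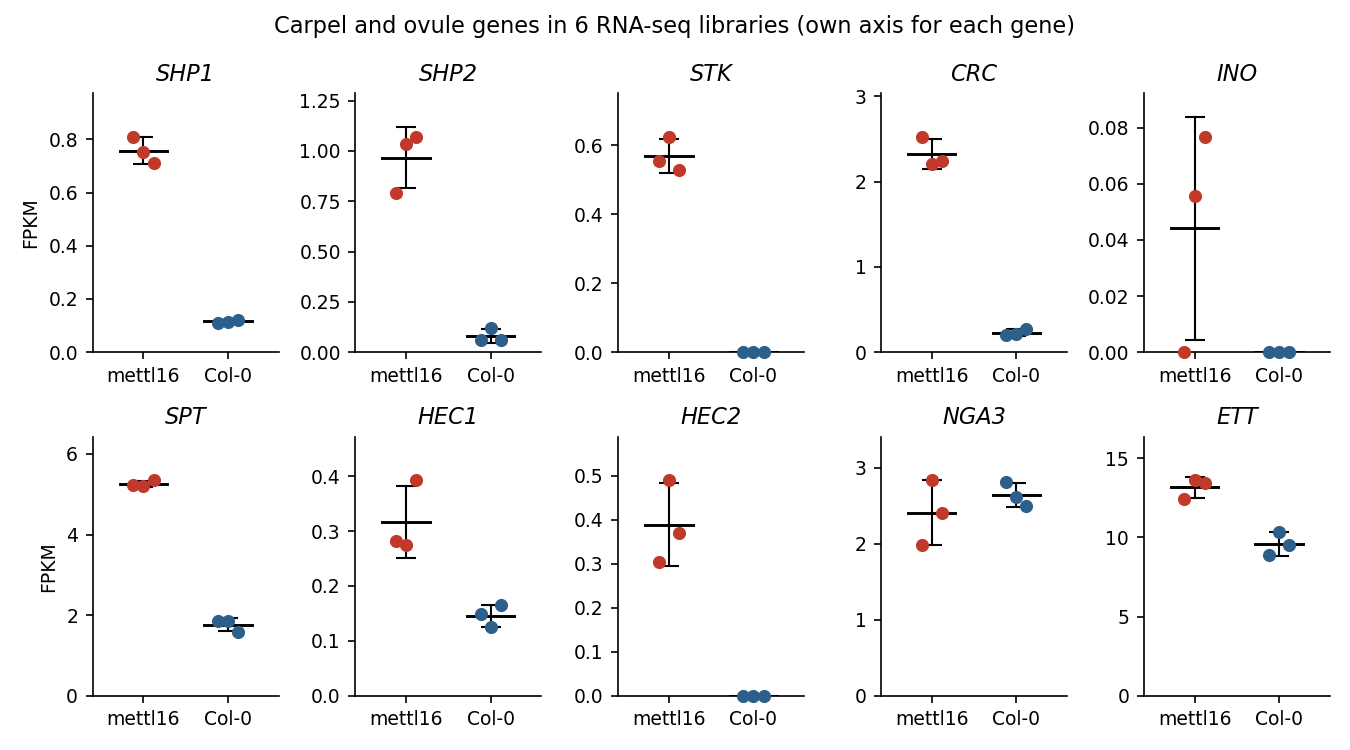
FPKM of each gene in the 3 mettl16 and the 3 Col-0 libraries; points are libraries, the horizontal bar is the mean and the whisker the SD, and each gene has its own axis starting at 0. In every panel but those of NGA3 and INO the mettl16 points lie above all Col-0 points.

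The MADS-box genes SHP1, SHP2 and STK are close relatives of AG. SHP1 and SHP2 act in overlapping ways at the fruit's valve margin, where the ripe fruit opens, and together with STK they give ovules their identity. SHP2 (AT2G42830; chromosome 2, 17820255 to 17824013, build TAIR10) was at 0.793, 1.03 and 1.07 FPKM in mettl16, against 0.0594, 0.121 and 0.0624 FPKM in Col-0. SHP1 (AT3G58780; chromosome 3, 21738460 to 21742517) was at 0.811, 0.753 and 0.711 FPKM in mettl16, against 0.111, 0.114 and 0.122 FPKM in Col-0. The genotypes did not overlap for either gene, and the least mettl16 value stood well clear of the greatest Col-0 value. STK (AT4G09960; chromosome 4, 6236375 to 6240932) was at 0.555, 0.625 and 0.528 FPKM in mettl16 and its Col-0 values were all listed at 0. Reads shared between SHP1 and SHP2, which are similar in sequence, could have been split between them; the sources used here do not say how such reads were counted.

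SHP2 rose in mettl16, with a log2(FPKM + 1) change of 0.86 (SE 0.0913, limma adjusted p = 2.24e-05). A linear ratio of the mean FPKM gave 11.9-fold for SHP2 and 6.56-fold for SHP1, which is larger than the fitted change because the pseudocount of 1 shrinks the change of genes this low. limma was run on the 19505 genes, 76.3% of the table, whose mean over the 6 libraries reached 0.5 FPKM. SHP2 stood just inside this limit at 0.524 FPKM and SHP1 just outside at 0.437 FPKM. STK, HEC1, HEC2 and INO were outside as well. SHP2 reached the limit only through its mettl16 values, so its call was partly fixed by the filter. For the genes outside, the exact permutation test of 3 against 3 libraries cannot go below p = 0.1, the value that SHP1, STK, HEC1 and HEC2 reached. In the same model fitted without the filter, SHP1 and STK passed as higher in mettl16 (adjusted p = 1.42e-05 and 9.59e-06). The Col-0 values of STK, all 0, had no spread, so its p rests on its mettl16 spread and on variance shared across genes.

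CRC and INO are YABBY factors. CRC drives carpel fusion, nectary formation and the closing of the floral meristem, while INO is active in the outer integument, the coat that grows around the ovule. CRC (AT1G69180; chromosome 1, 26007465 to 26009059) was at 2.53, 2.21 and 2.24 FPKM in mettl16, against 0.198, 0.217 and 0.276 FPKM in Col-0. It was thus low but measurable in Col-0 and about as high as NGA3 in the mutant. CRC rose in mettl16, with a log2(FPKM + 1) change of 1.43 (SE 0.0803, limma adjusted p = 2.37e-07), and the ratio of mean FPKM was 10.1-fold. Like SHP2, CRC reached the filter only through its mettl16 values, so its call was partly fixed by it. INO (AT1G23420; chromosome 1, 8317396 to 8319483) was listed at 0 in mettl16 replicate 1 and at 0.0555 and 0.0768 FPKM in replicates 2 and 3, and was listed at 0 in all Col-0 libraries. Its groups overlapped at 0 (two-sided exact permutation p = 0.4), and it did not pass without the filter (limma adjusted p = 0.174).

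SPT, HEC1 and HEC2 are bHLH factors. SPT promotes growth of the carpel margins, septum and stigma and also limits leaf growth, and the HEC proteins, which can pair with SPT, are needed for the stigma and the transmitting tract that guides pollen tubes. SPT (AT4G36930; chromosome 4, 17414127 to 17416294) was at 5.23, 5.20 and 5.35 FPKM in mettl16, against 1.86, 1.86 and 1.57 FPKM in Col-0. The mettl16 values differed from each other by far less than they did from Col-0, and SPT rose in mettl16, with a log2(FPKM + 1) change of 1.18 (SE 0.0684, limma adjusted p = 2.99e-07). HEC1 (AT5G67060; chromosome 5, 26766128 to 26767250) was at 0.282, 0.275 and 0.393 FPKM in mettl16, against 0.148, 0.125 and 0.164 FPKM in Col-0. HEC2 (AT3G50330; chromosome 3, 18657208 to 18658307) was at 0.304, 0.490 and 0.371 FPKM in mettl16 and was listed at 0 in Col-0. In both HEC genes the mettl16 values were low but none fell within the Col-0 values. Without the filter both passed as higher in mettl16 (limma adjusted p = 0.00822 for HEC1 and 0.000232 for HEC2). As for STK, the Col-0 values of HEC2 had no spread.

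The lowest of these values rest on few fragments. The most common value within a low range fixed in advance was taken as the step of 1 fragment, so the step could not fall outside that range. The step was about 0.0305, 0.0306 and 0.0348 FPKM times kilobases in mettl16, against 0.0452, 0.0312 and 0.0289 in Col-0. If right, a larger step means a shallower library. Taking the gene span as the transcript length, HEC1 would have at most about 10.4, 10.1 and 12.7 fragments in mettl16, against 3.68, 4.50 and 6.38 in Col-0. INO would have at most about 3.79 and 4.61 fragments in mettl16 replicates 2 and 3. For CRC, SHP1, SHP2 and STK the upper bounds in mettl16 were larger, between 69.2 and 132 fragments. The true numbers can be smaller. Between 22.0% and 26.3% of low values lay within 2% of a whole number of fragments, so these are rough sizes and no count was recovered. In 6 genes of the table a value of 0 in a library stood beside at least 5 FPKM in another library of the same genotype, so a 0 can be a failed estimate.

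NGA3 and ETT are the members with a wider leaf role. NGA3 is a B3 factor that, with its relatives NGA1, NGA2 and NGA4, shapes the style and the leaf margin. ETT, also called ARF3, is an auxin response factor that sets the extent of ovary, style and stigma along the gynoecium and marks the lower side of leaves. NGA3 (AT1G01030; chromosome 1, 11649 to 13714) was at 1.99, 2.84 and 2.40 FPKM in mettl16, against 2.82, 2.61 and 2.50 FPKM in Col-0. Its mettl16 values spanned the Col-0 values, and its log2 change was -0.10 (SE 0.0961, limma adjusted p = 0.373). ETT (AT2G33860; chromosome 2, 14325269 to 14328978) was at 12.4, 13.6 and 13.4 FPKM in mettl16, against 8.86, 10.4 and 9.52 FPKM in Col-0. ETT rose in mettl16, with a log2(FPKM + 1) change of 0.42 (SE 0.0605, limma adjusted p = 0.000186), the smallest change of the 4 that passed.

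Among the 5 tested genes, CRC, SHP2, SPT and ETT rose and none fell, where 64.5% of all tested genes were called, 41.1% as higher and 23.4% as lower in mettl16. Of the called genes 63.7% were higher in mettl16, a portion that was 52.5% with median centring and 49.3% with quantile normalization. CRC and SHP2 reached the filter only through their mettl16 values, so their calls were partly fixed by it, whereas NGA3, SPT and ETT were above 0.5 FPKM in Col-0 too. Among all tested genes the values did not overlap in 43.9%, higher in mettl16, and in 25.9%, lower in mettl16. Without the filter 8 of the 10 genes passed as higher and none as lower, where 34.1% of all 25566 genes passed as higher and 18.5% as lower. Since the 10 genes were chosen with earlier results known, these comparisons with all genes are descriptive only.

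The order of levels in mettl16 was ETT, SPT, NGA3, CRC, SHP2, SHP1, STK, HEC2, HEC1 and INO by mean FPKM. The ranges of the neighbours NGA3 and CRC, of SHP2 and SHP1 and of HEC2 and HEC1 overlapped, and those of the other neighbours did not. In Col-0 the order was ETT, NGA3, SPT, CRC, HEC1, SHP1 and SHP2, with STK, HEC2 and INO listed at 0, and among the measured genes the ranges of SHP1 and SHP2 overlapped. SPT thus stood above NGA3 in the mutant and below it in Col-0. ETT, SPT and NGA3 made up between 78.8% and 79.9% of the summed FPKM of the 10 genes in mettl16 and between 95.6% and 96.3% in Col-0. The other 7 genes summed to 5.27, 5.44 and 5.39 FPKM in mettl16, against 0.516, 0.577 and 0.625 FPKM in Col-0. In such bulk samples, more cells of a type and more RNA per cell cannot be told apart.

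A comparison with close relatives used the log2 ratio of 2 genes in each library, for 6 pairs chosen with the values known. The NGA3 to NGA1 ratio was -1.62, -1.07 and -1.51 in mettl16, against -1.76, -1.98 and -2.07 in Col-0. NGA3 was the lower of the pair in all libraries, and the ratios did not overlap between genotypes. The log2 ratio of NGA3 to NGA2 also did not overlap, with a mean of -1.12 ± 0.270 in mettl16 and -1.69 ± 0.123 in Col-0 (SD, n = 3 each). The ETT to ARF4 ratio, of 2 auxin response factors with a shared role on the lower leaf side, was 0.12, 0.36 and 0.31 in mettl16, against -0.30, -0.03 and -0.25 in Col-0. ETT was thus above ARF4 in the mutant and below it in Col-0. The HEC1 to HEC3 ratio averaged -0.66 ± 0.0739 in mettl16 and 0.66 ± 0.953 in Col-0 (SD, n = 3 each) without overlap. HEC3 was between 0.05 and 0.20 FPKM in Col-0, and HEC1 had at most about 6.38 fragments there by the rough step above. The Col-0 ratio of this pair thus rests on few fragments and says little. These 4 pairs reached p = 0.1, the smallest the two-sided exact permutation test allows, or 0.15 adjusted over the 6 pairs. The ratios of SHP1 to SHP2 and of SPT to ALC overlapped between genotypes (two-sided exact permutation p = 0.2 and 0.4, adjusted p = 0.24 and 0.4).

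In a list of 31 other regulators of carpels, ovules and fruit, 9 of 23 tested members rose and 6 fell, shares near the 41.1% higher and 23.4% lower over all tested genes. The list's median log2 change was 0.12, against 0.08 over all tested genes. FUL, which acts in fruit valves and in flowering, rose by 1.87 on the log2(FPKM + 1) scale, AG by 1.37 and ALC, the closest relative of SPT, by 1.35 (limma adjusted p = 7.88e-08, 1.50e-06 and 8.90e-07). AG was at 2.76 ± 0.451 FPKM in mettl16 and 0.453 ± 0.0802 FPKM in Col-0 (SD, n = 3 each). AG, CUC1 and CUC2, all counted among the 9, averaged under 0.5 FPKM in Col-0 and reached the filter only through mettl16. The relatives of NGA3 and ETT differed among themselves: NGA1 and NGA2 fell, while NGA4 and ARF4 had log2 changes of 0.04 and 0.00 and did not pass (limma adjusted p = 0.748 and 0.970). NGA1 was at 6.31 ± 0.475 FPKM in mettl16 and 10.1 ± 0.477 FPKM in Col-0, and NGA2 at 5.19 ± 0.415 FPKM in mettl16 and 8.51 ± 0.382 FPKM in Col-0 (SD, n = 3 each). BEE3 and BEE1, bHLH factors of brassinosteroid response and of the transmitting tract, fell by 0.62 and 0.34 (limma adjusted p = 4.22e-05 and 0.00366). Their relative HAF, below the filter, went the other way, at 0.411, 0.295 and 0.333 FPKM in mettl16 and listed at 0 in Col-0. Without the filter HAF passed as higher (limma adjusted p = 9.75e-05). NTT, also of the transmitting tract, rose by 0.24 (limma adjusted p = 0.0375), a call lost in 7 of 14 alternatives.

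BEL1, a homeodomain factor of the integuments, fell by 0.50 (limma adjusted p = 5.42e-06) and was among the more abundant transcripts of the list, at 16.3 ± 0.713 FPKM in mettl16 and 23.4 ± 0.709 FPKM in Col-0 (SD, n = 3 each). FIL, a YABBY factor of the lower leaf side, fell by 0.13 (limma adjusted p = 0.0384), while its relative YAB3 rose by 0.12 (limma adjusted p = 0.0422). The call of FIL was lost in 7 of 14 alternatives, among them without Col-0 replicate 1 (0.0553) or 2 (0.134) and without mettl16 replicate 2 (0.0738) or 3 (0.136). The call of YAB3 was lost in 9 of 14, among them median centring (adjusted p = 0.388), quantile normalization (0.347) and without Col-0 replicate 1 (0.0584) or 3 (0.147) or mettl16 replicate 1 (0.0985) or 3 (0.129). Of the 8 members below the filter, 6 were listed at 0 in all Col-0 libraries, and without the filter 12 of the 31 passed as higher and 5 as lower, shares near the 34.1% and 18.5% over all genes.

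**Figure D2:**
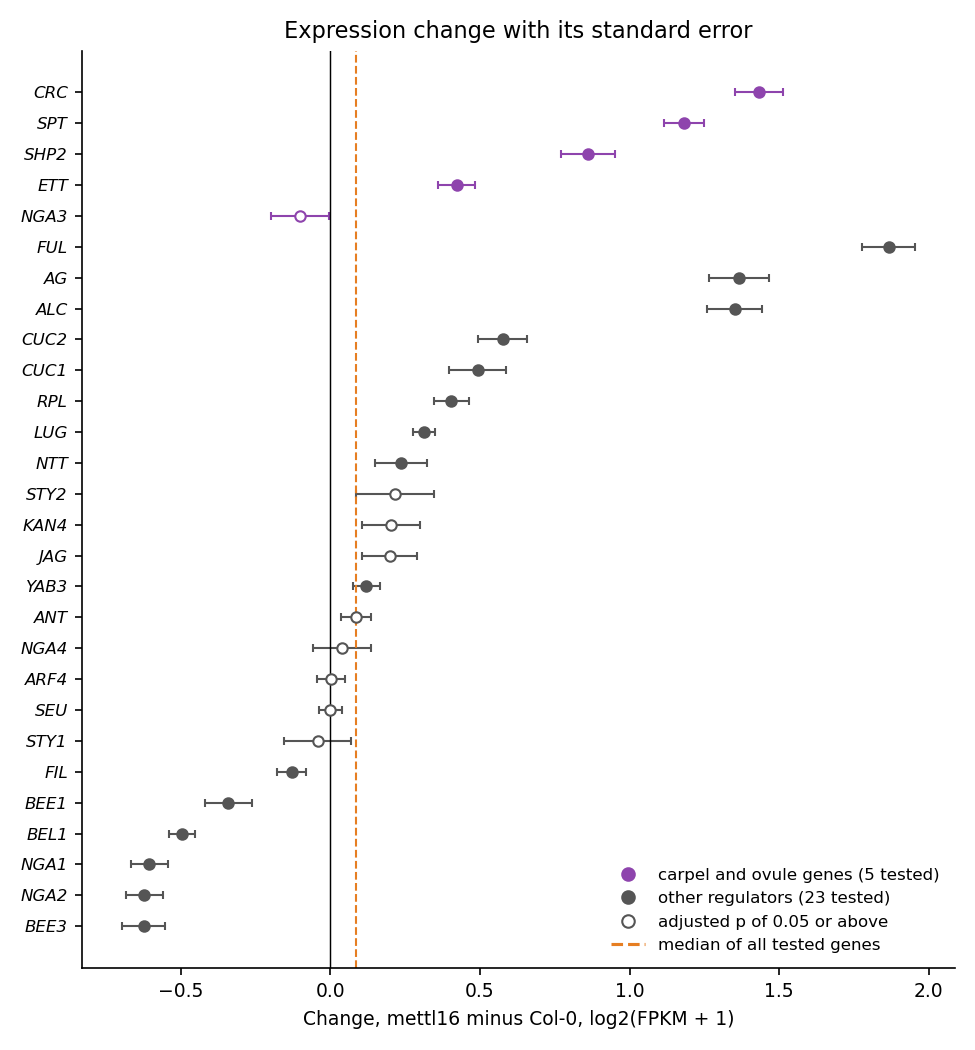
Change in log2(FPKM + 1), mettl16 minus Col-0, with its standard error from limma, for the 5 tested carpel and ovule genes at the top and 23 tested members of the wider list below. CRC, SPT, SHP2 and ETT lie right of the dashed median of all tested genes (0.08), NGA3 lies left of 0, and the wider list runs from FUL at 1.87 to BEE3 at -0.62.

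Floral identity genes, some of which act in carpels too, and anther and tapetum markers also differed between the same libraries. The 11 floral meristem and organ identity genes summed to between 102 and 104 FPKM in mettl16 and between 22.4 and 23.3 FPKM in Col-0, with 8 of 9 tested members higher and AP2 lower, where 41.1% and 23.4% of all tested genes were. Of the 8 that were higher, 6 averaged under 0.5 FPKM in Col-0 and reached the filter only through mettl16. The 8 anther and tapetum markers summed to 11.6, 12.4 and 13.8 FPKM in mettl16, against 0.115, 0.0909 and 0.162 FPKM in Col-0, and 6 of them were listed at 0 in every Col-0 library. Most of the mettl16 sum was A9, A6, ATA7 and AMS, at means of 4.40, 3.21, 2.66 and 1.78 FPKM. MS1, TDF1, DYT1 and MYB80 were at or under 0.473 FPKM in every library, and TDF1, DYT1 and MYB80 overlapped between genotypes. The anther sum in mettl16 was above the 5.27 to 5.44 FPKM of the 7 carpel and ovule genes without ETT, SPT and NGA3. The lists hold unlike genes, so their sums do not compare amounts of organs. The part of other floral organs in the results above was not tested.

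Markers of stages after ovule formation were also measured. Of 7 genes listed as egg and synergid cell markers 4 were in the table, summing to 2.15, 2.31 and 3.05 FPKM in mettl16, against 1.18, 1.71 and 1.43 FPKM in Col-0. Nearly all of this sum was EC1.4 and AGL80, which were already at means of 0.727 and 0.674 FPKM in Col-0. AGL80 is known as a factor of the central cell, so the name of the list does not cover it. Whether the sum reflects egg or synergid cells was not tested. EC1.4, of the egg cell, rose by 0.56 on the log2(FPKM + 1) scale (limma adjusted p = 0.00639), at 1.56 ± 0.496 FPKM in mettl16 and 0.727 ± 0.192 FPKM in Col-0 (SD, n = 3 each), and AGL80 did not pass (limma adjusted p = 0.1004). EC1.1, also of the egg cell, and MYB98, of the synergids, were below 0.15 FPKM in every library. Of 8 seed storage and embryo markers 6 were in the table, and FUS3, a seed maturation factor, was the only member above the filter. FUS3 rose (limma adjusted p = 0.00209), at 1.12 ± 0.118 FPKM in mettl16 and 0.516 ± 0.175 FPKM in Col-0 (SD, n = 3 each). SESA1, SESA2, CRA1, OLEO1 and ABI3 were at or under 0.191 FPKM in every library, and none of them passed without the filter. Of 5 shoot meristem genes WUS was at 0.328 ± 0.0700 FPKM in mettl16 and listed at 0 in Col-0, and STM and KNAT1 rose by 1.21 and 2.29 on the log2(FPKM + 1) scale (limma adjusted p = 6.72e-07 and 2.26e-10). CLV1 rose by only 0.10 (limma adjusted p = 0.0441), and CLV3 averaged 0.0129 FPKM in mettl16 and 0.0204 FPKM in Col-0. All 3 tested members were thus called higher, where 41.1% of all tested genes were.

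**Figure D3:**
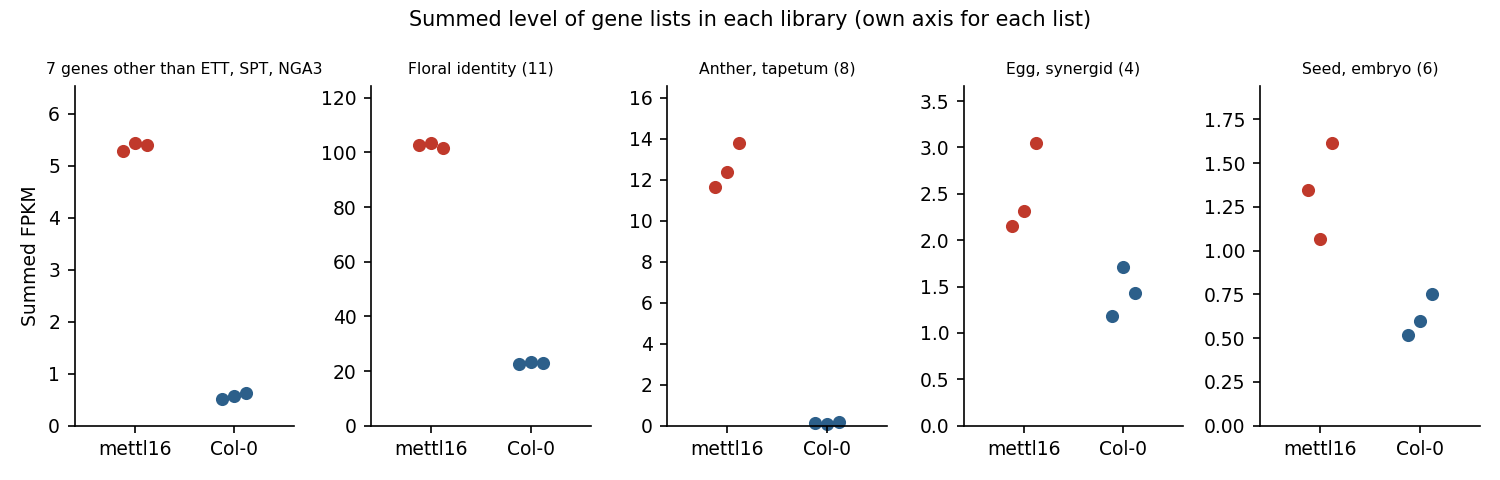
Summed FPKM of 5 gene lists in each library, with mettl16 left of Col-0; points are libraries and each list has its own axis starting at 0. The number after a list is how many of its genes were in the table, and the anther sums in Col-0 lie at or under 0.162 FPKM.

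As checks of the labels, FIO1 (AT2G21070), which general knowledge names as the Arabidopsis METTL16, was at 0.292, 0.148 and 0.197 FPKM in mettl16, against 1.98, 2.13 and 2.31 FPKM in Col-0 (limma adjusted p = 4.94e-07). Of 8 root markers 4 were in the table. WOX5, COBL9 and CASP1 were below 0.5 FPKM in every library, and PYK10, abundant in roots, was at 66.4 ± 2.16 FPKM in mettl16 and 64.2 ± 1.13 FPKM in Col-0 (SD, n = 3 each). Genes listed at 0 numbered 1939 to 2171 in the mettl16 libraries and 2590 to 3120 in the Col-0 libraries, and were most numerous in Col-0 replicate 1, whose fragment step was the largest.

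m6A on messenger RNA lies mostly near the stop codon and in the 3' UTR, where reader proteins can bind it and alter the stability of the transcript. Of the 10 genes SHP1, SHP2, STK and SPT had rows in the authors' deposited table, with 6 peaks in all, and no peak row was found for CRC, INO, HEC1, HEC2, NGA3 or ETT. ETT, with no row, was the most abundant of the 10, and STK, with one, was among the scarcer. Of all genes 23.4% had a peak row, as did 12.8% of those with a mean of 0.2 to 1 FPKM and 26.5% of those with 1 to 15 FPKM.

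SPT had the best supported of these peaks. It covered 3 blocks of 504 bases in all, within chromosome 4, 17415629 to 17416294 on the + strand (build TAIR10), was classed as 3' UTR and reached the annotated transcript end. The SPT peak had a log2 fold change of 0.42, mettl16 over Col-0, at an unadjusted p of 0.0417 and an FDR of 0.103 in the authors' deposited table. Its own peak p-value was 3.2e-78 in the authors' deposited table, where the median over all peaks was 1e-223. The transcript itself was 2.98-fold higher in mettl16, and the sources used here do not say whether a peak's fold takes the transcript level into account.

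SHP1 had 2 peaks in the authors' deposited table, each assigned to the end of a different transcript model. The upstream one (chromosome 3, 21741320 to 21741896, + strand) ended 4 bases before the end of model AT3G58780.2 and, in the authors' deposited table, changed by -0.96 (log2) at an FDR of 0.195. The downstream one (21742132 to 21742517) reached the end of model AT3G58780.3 and, in the authors' deposited table, changed by -0.29 (log2) at an FDR of 0.213. The downstream peak lay wholly, over 386 bases, inside AT3G58790, a gene on the opposite strand (21742071 to 21746324). AT3G58790 was at 9.16 ± 0.235 FPKM in mettl16 and 7.70 ± 0.345 FPKM in Col-0 (SD, n = 3 each), well above SHP1. The libraries marked strand, but the sources used here do not say whether peak calling used it, so reads of the 2 genes cannot be told apart in that peak or at the end of SHP1.

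SHP2 had a peak of 4 blocks up to its transcript end (chromosome 2, 17823176 to 17824013, + strand), and the authors' deposited table put its log2 fold at 0.51 with an FDR of 0.349. A second, narrow peak of 121 bases in exon 6 of 7 (17823385 to 17823505) lay inside the span of the first, and the authors' deposited table put its log2 fold at 1 with an FDR of 0.491. Both overlapped AT2G42835 on the opposite strand, which was at 0.147, 0.204 and 0.105 FPKM in mettl16 and listed at 0 in Col-0. The STK peak (chromosome 4, 6236493 to 6236846, - strand) stood 118 bases from the transcript end and, in the authors' deposited table, changed by 1.11 (log2) at an FDR of 0.515, while STK itself was listed at 0 in Col-0.

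None of the 6 peaks passed an FDR of 0.05 and 1 passed an unadjusted p of 0.05, where of all peaks in the authors' deposited table a share of 69.2% passed the FDR and 81.8% the unadjusted p. The method behind these values is not named for this table, and no sample values of the immunoprecipitates were used here. The median size of the 6 folds was 0.73 on the log2 scale. In the authors' deposited table it was 0.31 over all peaks and 0.345 over the peaks that did not pass. The size of folds that did not pass is no sign of a change in m6A, and STK, with the largest, was listed at 0 FPKM in Col-0. The 6 folds pointed both ways, 4 above 0 and 2 below. The peaks lay where most peaks do, with 5 of 6 within 150 bases of the transcript end, against 84.5% of all peaks, and 5 of 6 classed as 3' UTR, against 78.9%.

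Of the 31 other carpel, ovule and fruit regulators 11 had a peak, and 6 of these 11 were lower and none higher in mettl16 in the authors' deposited table, where 51.6% of all peaks were called lower and 17.6% higher. In the authors' deposited table the ALC peak was lower by log2 fold, at -0.72 with an FDR of 1.35e-06, though the ALC transcript rose. The authors' deposited table put the FIL peak at -0.25 with an FDR of 3.80e-06 and the BEL1 peak at -0.18 with an FDR of 0.0457. For AG and FUL, whose transcripts rose, the authors' deposited table gave log2 folds of 0.58 and 0.37 that did not pass, with FDRs of 0.119 and 0.103.

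**Figure D4:**
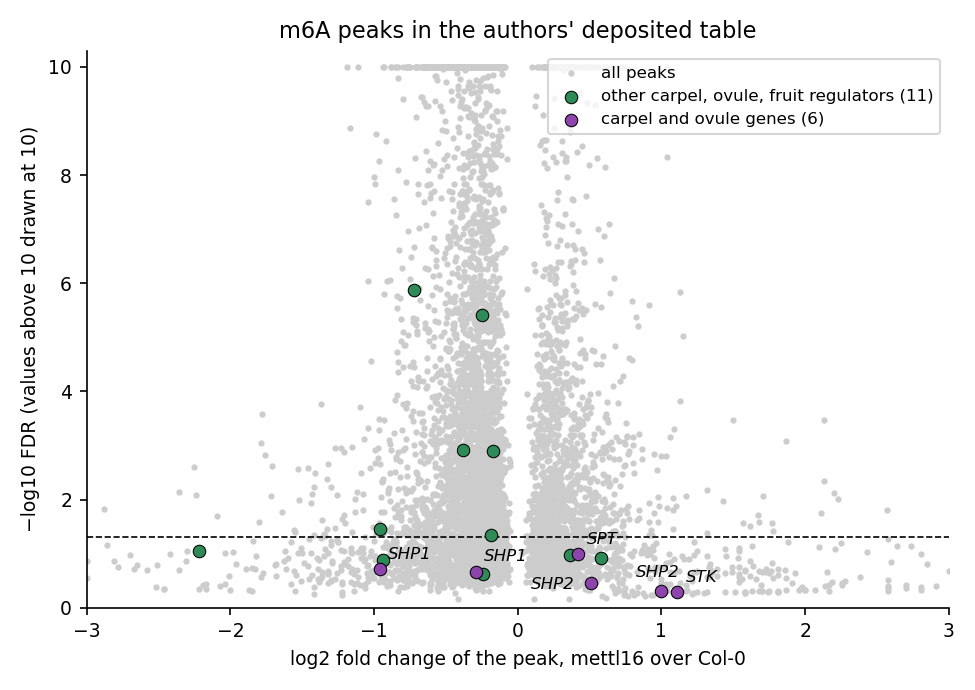
Log2 fold change of each m6A peak, mettl16 over Col-0, against −log10 of its FDR in the authors' deposited table, with values above 10 drawn at 10 and 20 peaks beyond a fold of 3 on the log2 scale not drawn. The 6 peaks of SHP1, SHP2, STK and SPT lie under the dashed line at an FDR of 0.05, between -0.96 and 1.11.

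In the authors' annotation all 10 genes carried the terms for DNA-binding transcription factor activity and nucleus. The term for carpel development was given to 5 of them (CRC, SHP1, SHP2, SPT and STK) and that for plant ovule development to 4 (INO, SHP1, SHP2 and STK). The tested genes whose profile over the 6 libraries had the highest Pearson's r with the mean profile of the 10 genes were ALDH11A3, TWN2, cpHsc70-1, AT1G78930 and ABCC8, with r between 0.99958 and 0.99986. The 6 points fall into 2 genotypes, so such an r mostly reads the difference between genotypes.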

How the data were processed

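The authors deposited FPKM values per gene for 6 RNA-seq (input) libraries and a table of m6A peaks. Per the file headers, each deposited peak has a log2 fold, a p-value for its difference, an FDR kept as a log10 score at or below 0, and a further column that by its values is the peak's own p-value. That folds are mettl16 over Col-0 was taken from the name of the table. Per the submitters' processing notes, the build was TAIR10 and the tools included HISAT2, StringTie, HOMER, edgeR, fastp and cutadapt, with no versions or roles. Each column's genotype and replicate number gave its sample. Symbols came from RefSeq's table of assembly TAIR10.1, which held all 88 listed genes and 95.5% of all identifiers.

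Genes averaging 0.5 FPKM or more were tested on log2(FPKM + 1) with limma 3.58.1 in R 4.3.3, trended and robust, two-sided, with Benjamini-Hochberg adjustment over all tested genes and a threshold of 0.05; the method was tested on simulated data. A peak was called at the authors' FDR under 0.05. Other steps used Python 3.11.15, NumPy 2.4.6, pandas 2.3.3, SciPy 1.17.1 and matplotlib 3.10.9. The members and lists were chosen with earlier results of these data known. Named genes were all members, from each list at most the 6 largest called changes and those against the list's main direction, genes overlapping a member, FIO1, and the 5 most similar profiles. Nothing in the labels says that the replicates grew separately beyond calling them biological replicates. Replicate numbers did not pair the libraries. No sequence of these genes was used here.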

Additional observations from a re-analysis of the deposited data

How the results depend on the processing

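Of the 10 genes, 4 passed as higher and none as lower in the fit reported. Without the filter on low values 8 passed as higher, because the 5 genes under the filter were then tested. Leaving out 1 library at a time gave 3 to 5 calls, all higher, as SHP1 or SHP2 crossed the filter. CRC, SPT and ETT passed as higher in all 14 alternatives, and SHP2 in all 10 in which it reached the filter. NGA3 passed in none of 14, with an adjusted p between 0.0635 and 0.924. On a pseudocount of 0.1 the change of CRC was 2.88 and that of SHP2 2.57 on the log2 scale. The wider list had between 13 and 17 calls against 15, and FIL, YAB3 and NTT lost theirs in 7, 9 and 7 of 14 alternatives. All genes called numbered between 11574 and 13434 against 12584. No call of these 10 genes changed direction under the alternatives run. The peak calls of the 10 genes stayed at 0 at an FDR of 0.01 and with a fold of at least 1 on the log2 scale. With the replicate number as a block, 12409 genes and the same count of 4 of the 10 genes were called; same-numbered libraries had correlations of their deviations between -0.08 and 0.01, so the numbers do not pair the libraries. The FPKM values keep no exact depth, which limits what can be said of genes near 0.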
